A study of Homo sapiens with 32 samples.

Results

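Drug efflux transporters of the ATP-binding cassette (ABC) family were followed in Ewing sarcoma cells with and without the cohesin subunit STAG2. The set held 9 genes, ABCC1, ABCC2, ABCC3, ABCC4, ABCC5, ABCC6, ABCC10, ABCB1 and ABCG2, out of 28278 gene symbols counted in the clones and 60199 gene IDs measured in the knockdown. The genes were chosen by what they encode, together with measured values of ABCC1, which was higher in STAG2 KO and lower in STAG1 KO libraries than in their controls. For these 2 contrasts the members are therefore described without p-values, and counts of calls are given only beside those of all genes, with nothing read from them. All 9 were present in both kinds of table.

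A673, SK-N-MC and A4573 are established Ewing sarcoma cell lines, in which the fusion of EWSR1 with FLI1 acts as an aberrant transcription factor. The A673 clones were made by CRISPR editing of the WT clone, an unedited clone in which Cas9 can be induced (iCas9), so that every edited A673 library also carried the Cas9 insertion. Each STAG2 KO, STAG1 KO, EZH2 KO or SUZ12 KO library was a clone or a culture of a clone, and the clones of a genotype may also differ in ways other than the edited gene. Experiment 1 held 2 WT clone libraries, 1 library of parental A673, which lacks the Cas9 insertion, and 2 STAG2 KO libraries. Experiment 2 held 2 WT clone libraries, 1 parental library and 3 libraries each of STAG2 KO, EZH2 KO and SUZ12 KO. Experiment 3 held 1 WT clone library, 1 parental library and 3 STAG1 KO libraries. In experiment 4, parental A673 cells were transfected with a pool of siRNAs against STAG2 (siSTAG2, n = 3) or mock-transfected (siC, n = 3). With a mock-transfected control, effects of siRNA as such and of STAG2 loss cannot be told apart. Both arms of each isogenic pair are labelled iCas9. SK-N-MC iCas9 cells, which express STAG2, were compared with a STAG2 KO derivative, and A4573 iCas9 cells, which lack STAG2 protein, with a derivative in which STAG2 was restored by a knock-in (KI). The KI cells had also been transfected with a repair oligonucleotide and a Cas9 plasmid and selected with puromycin. These isogenic pairs had 1 library in each arm and no replicate. The KO libraries of experiments 1 and 3 were matched to a genotype, not to a particular clone, and are called by the numbers in the deposited tables.

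ABC transporters use ATP to move substrates across membranes, and a small number of them carry anticancer drugs out of the cell. ABCC1 (multidrug resistance-associated protein 1, MRP1) exports glutathione conjugates, the leukotriene LTC4 and, together with glutathione, drugs that are used against Ewing sarcoma such as doxorubicin, vincristine and etoposide. ABCB1 (P-glycoprotein) carries many of the same drugs without glutathione, and ABCG2 (breast cancer resistance protein) carries topoisomerase inhibitors. The other ABCC members are organic anion pumps with partly shared substrates. STAG1 and STAG2 are alternative subunits of cohesin, the ring-shaped complex that extrudes chromatin loops. EZH2 is the catalytic subunit and SUZ12 a core subunit of Polycomb repressive complex 2 (PRC2), which methylates histone H3 at lysine residues of silent genes.

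The core DNA motif of the fusion transcription factor is GGAA, so the sequences just before the start sites of members that differed most in their level or response are shown, with each GGAA or its complement TTCC in capitals. They come from RefSeq on GRCh38, run 5′ to 3′ toward the start site on the − strand and end where the first annotated exon begins, which leaves 222, 226 and 195 bases.
ABCB1 upstream stretch, chr7:87713324-87713545: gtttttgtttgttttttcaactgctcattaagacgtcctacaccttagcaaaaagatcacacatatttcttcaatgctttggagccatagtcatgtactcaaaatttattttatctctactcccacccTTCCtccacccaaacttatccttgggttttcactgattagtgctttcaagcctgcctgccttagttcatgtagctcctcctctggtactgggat
ABCC4 upstream stretch, chr13:95301476-95301701: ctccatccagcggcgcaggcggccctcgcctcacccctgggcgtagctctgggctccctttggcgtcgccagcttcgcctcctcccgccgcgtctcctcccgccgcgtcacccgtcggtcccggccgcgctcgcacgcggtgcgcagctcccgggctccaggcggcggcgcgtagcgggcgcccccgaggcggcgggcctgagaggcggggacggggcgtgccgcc
ABCC5 upstream stretch, chr3:184017940-184018134: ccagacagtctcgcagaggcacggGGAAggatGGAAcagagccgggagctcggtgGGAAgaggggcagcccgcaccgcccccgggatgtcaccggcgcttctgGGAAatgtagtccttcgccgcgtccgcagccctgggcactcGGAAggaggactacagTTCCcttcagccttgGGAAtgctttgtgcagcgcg
The ABCB1 stretch is that of its upstream start site. The window of 250 bases before that start had 39.2% G and C and 1 CpG. The window of ABCC4 had 80.4% G and C with 42 CpG, and that of ABCC5 64.8% with 21. GGAA, searched on both strands, was found 1 time in the upstream ABCB1 window and that of ABCC4, and 7 times in that of ABCC5. The median was 3 over 35116 windows of the same length, of which 92.7% held it. The other RefSeq window of ABCB1, chr7:87600885-87601134, held GGAA 6 times, with 55.6% G and C and 12 CpG. The tandem GGAAGGAA, which overlaps the single motif, was in none of these windows and in 3.06% of all windows. RefSeq windows were found for 7 of the 9 members and not for ABCC1 and ABCC3. A match of letters is no evidence of binding.

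The counts of the 22 A673 libraries summed to 15734628 to 20663679, those of the isogenic libraries to 29322507 to 32261248, and the reads recovered for the knockdown to 6852340 to 8184632. Levels are given relative to library size, as CPM scaled by TMM, and comparisons between genes as CPM per kb of annotated exon. In bulk RNA, fewer cells with a transcript and less of it per cell cannot be told apart. Of 7 genes that mark Ewing sarcoma cells, 6 had more than 10 counts in each of the 26 count libraries, while CD99 had 0 in all of them. CD99 was measured in the knockdown table, where it fell with siSTAG2 (log2 fold change −0.75, adjusted p = 1.99e-10 by limma), so that its 0 in the count tables is not read as absence of the transcript. STAG2 was at 247.2 to 346 CPM in the controls of experiments 1 and 2, at 60.3 to 69.7 in STAG2 KO libraries of experiment 2, and at 43.5 and 188 CPM in those numbered 5 and 24 of experiment 1. STAG1 was at 57.1 and 68.2 CPM in its controls and at 15.0 and 32.7 CPM in the STAG1 KO libraries numbered 5 and 7, but at 61.8 CPM in the library labelled 1, so that fold changes in STAG1 KO are given with and without it. EZH2 was at 28.5 to 56.0 CPM in EZH2 KO libraries against 165 to 188 in their controls, and SUZ12 at 11.2 to 20.7 CPM in SUZ12 KO libraries against 57.7 to 64.3. Transcript levels do not measure the protein. The WT clone libraries a and b of experiment 1 were closer to each other (mean chi-square of 1.33 per gene) than any other pair of a group (9.41 to 140), more than sampling noise allows but possibly from the same RNA. Whether libraries came from separate cultures is not stated in the sources used here, so that p-values measure the spread between libraries, which may be in part technical.

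In A673, 4 of the 9 genes made up nearly all transcripts of the set. In the 8 control libraries of experiments 1 to 3, ABCC4, which exports cyclic nucleotides, prostaglandins and nucleoside analogs, had the highest level at 14.2 ± 1.77 CPM per kb (SD, n = 8). ABCC1 followed at 6.96 ± 2.17, then ABCC10, linked to resistance to taxanes, at 4.01 ± 0.226, and ABCC5, a pump of cyclic nucleotides and nucleotide analogs, at 3.71 ± 0.57. The levels of ABCC10 and ABCC5 did not differ beyond their spread, and the range of ABCC1 reached that of ABCC10 through the controls of experiment 2. The other members were far below. ABCC2, the canalicular pump of liver cells, was at 0.158 ± 0.0533 CPM per kb, ABCC3, a basolateral pump of glucuronides and bile salts, at 0.0512 ± 0.025, and ABCC6, whose loss causes pseudoxanthoma elasticum, at 0.0151 ± 0.0152. The ranges of ABCC2 and ABCC3, and those of ABCC3 and ABCC6, overlapped. ABCG2 had 5 counts and ABCB1 1 count over all 8 control libraries together, which is too few to order them.

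**Figure D1:**
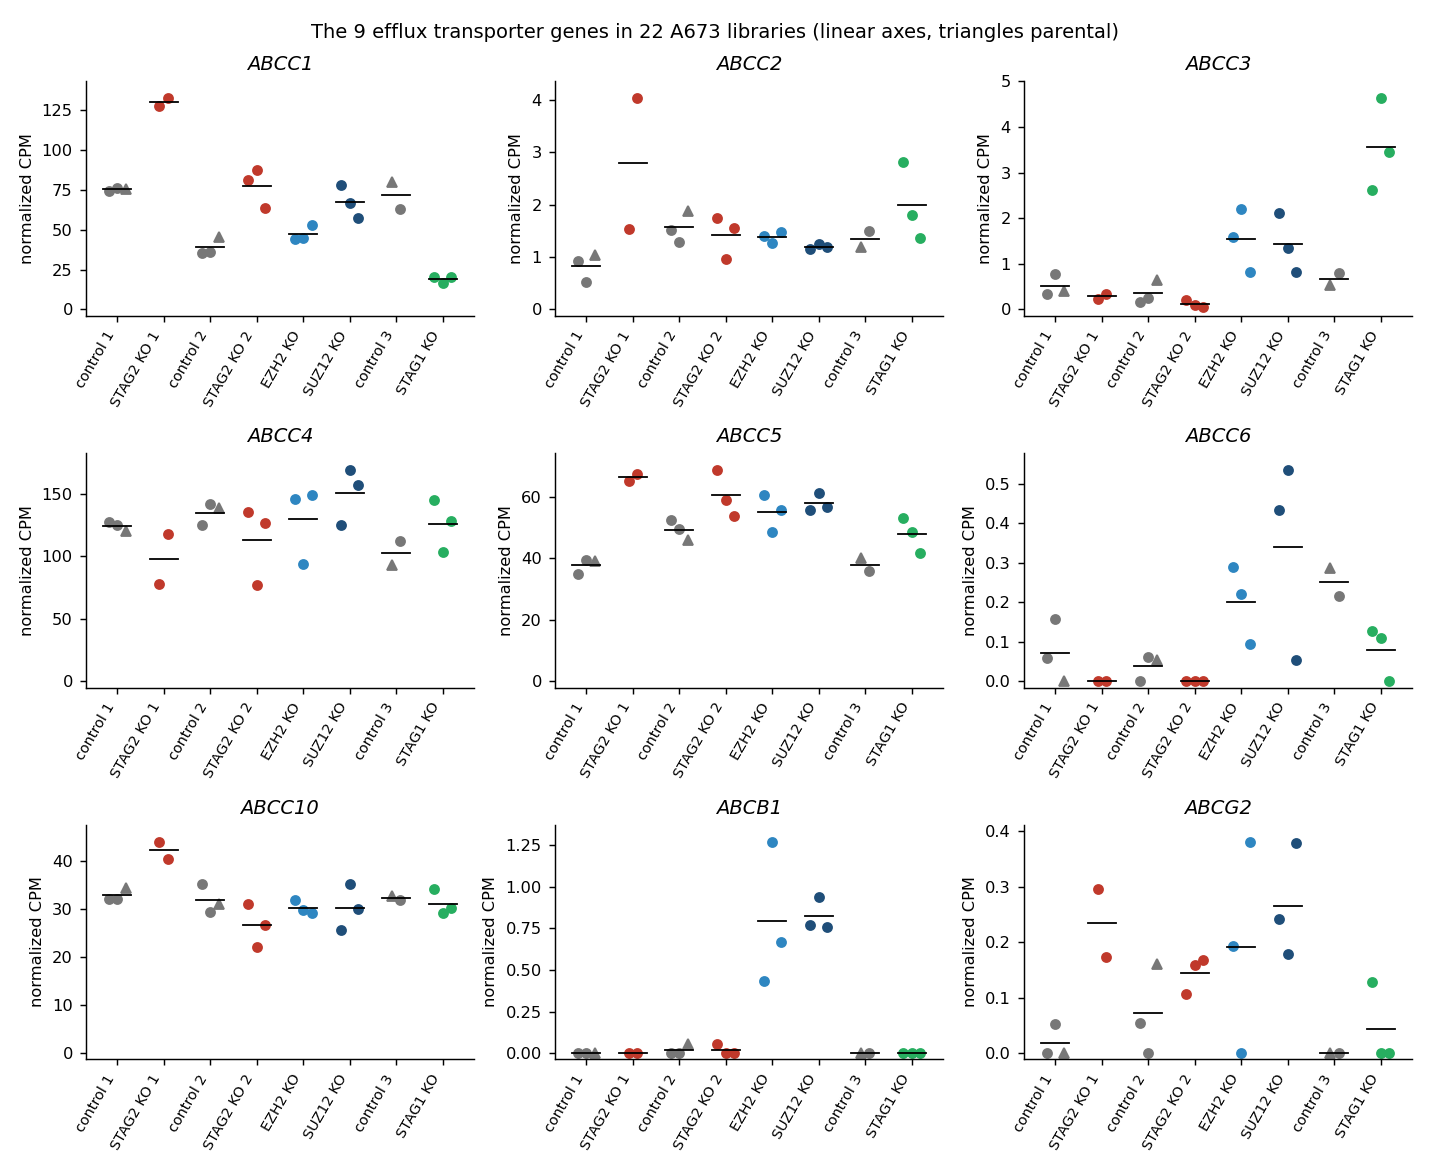
Normalized CPM of each member in the 22 A673 libraries, by group (1, 2 and 3 are experiments). Points are libraries, triangles the parental line, lines group means, and axes are linear and differ between genes. ABCC1 is at 16.3 to 20.6 CPM in STAG1 KO libraries and at 63.6 to 132.7 CPM in STAG2 KO libraries, and ABCB1 leaves the baseline in EZH2 KO and SUZ12 KO libraries.

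ABCC1 lies at chr16:15949138-16143257 on the + strand (GRCh38, GENCODE 44), next to ABCC6 at chr16:16149565-16223522 on the − strand. In experiment 1 it was at 74.2 and 76.3 CPM in the WT clone libraries and 75.7 in the parental one, and at 127.7 and 132.7 in the STAG2 KO libraries 5 and 24. In experiment 2 it was at 35.4 and 36.0 CPM in the WT clone libraries and 45.5 in the parental one, and at 63.6, 80.95 and 87.7 in the STAG2 KO libraries 2, 3 and 5. Within each experiment all STAG2 KO libraries were above all controls, but the KO libraries of experiment 2 (77.4 ± 12.4, n = 3) were at the level of the controls of experiment 1 (75.4 ± 1.07, n = 3). The log2 fold change, which is part of what chose the set, was 0.86 (standard error 0.111) over both experiments, 0.75 (0.0875) in experiment 1 and 0.98 (0.178) in experiment 2. Library 24, which kept the most STAG2 transcripts of the 5 KO libraries, had as much ABCC1 as library 5.

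The other ABCC members differed from each other in STAG2 KO cells. ABCC5 was at 34.8 to 39.4 CPM in the controls and 65.2 and 67.5 in the KO libraries of experiment 1, and at 46.1 to 52.6 in the controls and 53.7, 59.0 and 68.8 in the KO libraries of experiment 2, so that the groups did not overlap within either experiment. Its log2 fold change was 0.49 (standard error 0.118), with 0.77 in experiment 1 and 0.28 in experiment 2. ABCC4 was at 120.1 to 141.3 CPM in the 6 controls, while the 5 KO libraries spread from 76.6 to 135 with a median of 118, for a log2 fold change of −0.34 (0.153). The lowest ABCC4 values belonged to the library 5 of each experiment, at 77.6 and 76.6 CPM. ABCC10 was at 29.5 to 35.3 CPM in controls, above them all in the KO libraries of experiment 1 (40.5 and 44.1) and at 22.1, 26.8 and 31.1 in those of experiment 2, and its log2 fold change of −0.02 (0.142) over both was 0.32 in experiment 1 and −0.28 in experiment 2. ABCC2 was at 0.525 to 1.88 CPM in controls, at 4.04 in library 24 and at 0.957 to 1.75 in the other 4 KO libraries, and its log2 fold change of 0.68 (0.441) was 0.18 without library 24. The other 4 members were too low to enter the fit. ABCC3 had 48 counts over the 6 controls and 17 over the 5 KO libraries, and ABCC6 had 6 in the controls and 0 in all KO libraries. ABCG2 had 5 counts over the controls and 16 over the KO libraries, each of which had 2 to 5, and ABCB1 had 1 in each group. No direction is read from such counts.

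Of the 5 members fitted in this contrast, ABCC1 and ABCC5 were called at an adjusted p under 0.05 (edgeR), beside 12.2% of all 14215 genes, a count from which nothing can be read since the contrast chose the set. Without STAG2 KO library 3 of experiment 2, or 5 or 24 of experiment 1, the count was 1, while the log2 fold change of ABCC5 was 0.42 to 0.56 whichever library was left out. The median log2 fold change of the 5 members was 0.49, against 0.01 for all genes. Summed over the 9 members, the level was 29.6 ± 1.21 CPM per kb (n = 6) in controls, against 33.6 ± 5.12 (n = 5) after STAG2 KO, where errors are SD. The share of ABCC1 in that sum was 21.9% on average in controls (14.4 to 28.5%) and 33.4% in KO libraries (24.1 to 41.7%), and that of ABCC4 50.8% and 37.1%. The summed level of 4 fibroblast markers (COL1A1, COL1A2, PDGFRB and DCN) was 788 to 1746 CPM in these controls and 174 to 357 CPM in the STAG2 KO libraries, and its part in the result was not tested.

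**Figure D2:**
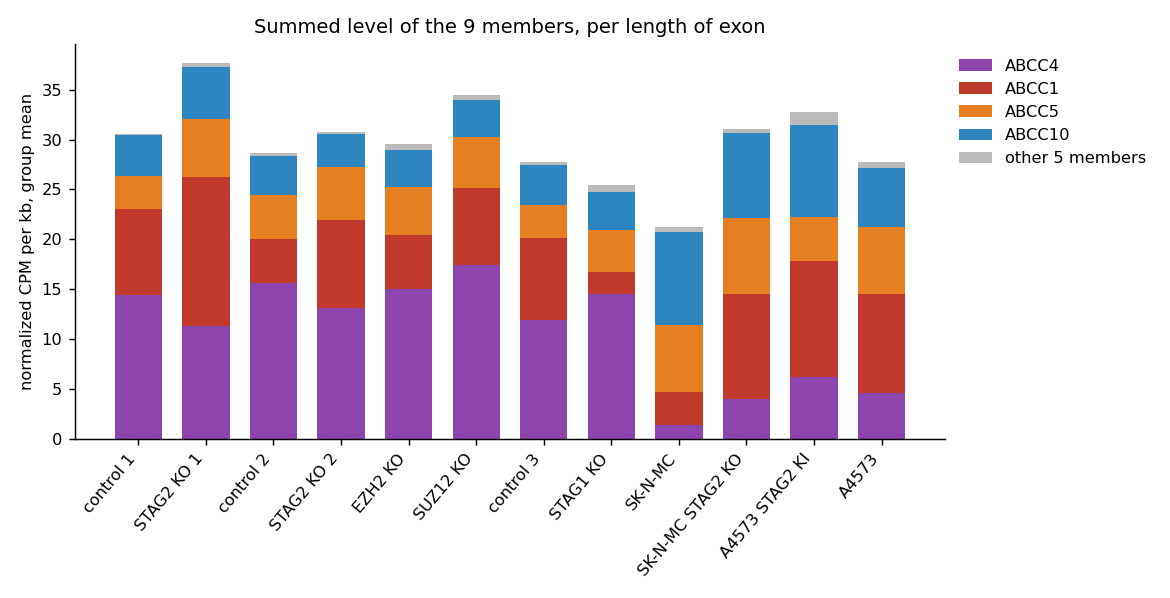
Mean level of the members, as normalized CPM per kb of exon, stacked by gene for each A673 group (1, 2 and 3 are experiments) and for each isogenic library, which was scaled apart from the A673 libraries. ABCC4 has the largest share of the sum in A673 controls, and ABCC1 widens in STAG2 KO cells of A673 and SK-N-MC and narrows in STAG1 KO cells.

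STAG1 KO libraries had less ABCC1 and more ABCC3 than their controls. ABCC1 was at 62.9 CPM in the WT clone and 80.3 in the parental library, and at 20.6, 16.3 and 20.6 in the STAG1 KO libraries 1, 5 and 7. The groups were far apart, with a log2 fold change of −1.92 (standard error 0.159), which was −1.95 without library 1. ABCC3 was at 0.527 and 0.807 CPM in the controls and at 2.62, 4.64 and 3.45 in the KO libraries, from 26 counts in the controls together and 194 in the KO libraries. The lowest KO library of ABCC3 was the library labelled 1, whose STAG1 level was that of the controls. Its log2 fold change was 2.40 (0.419), or 2.60 without library 1. ABCC2 (0.53, standard error 0.408), ABCC4 (0.27, 0.164), ABCC5 (0.32, 0.129) and ABCC10 (−0.07, 0.114) had smaller log2 fold changes. Without library 1 these were 0.23 for ABCC2, 0.18 for ABCC4, 0.25 for ABCC5 and −0.12 for ABCC10. These are descriptions too, since the STAG1 contrast chose the set.

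The count of members called was 2 of the 6 that were fitted (ABCC1 and ABCC3), beside 5.27% of 14373 genes, and nothing is read from it. It was 1 without KO library 5 or 7, and without the parental or the WT clone library no gene of the table was called. Over these fits the log2 fold change ran from −2.08 to −1.73 for ABCC1 and from 2.12 to 2.73 for ABCC3. The summed level of the members was 27.7 ± 0.0808 CPM per kb (SD, n = 2) in controls and 25.4 ± 3.15 (SD, n = 3) in STAG1 KO libraries, where ABCC1 made up 8.63% of it on average. Library 1 had the highest sum of the 3 (28.7) and the lowest share of ABCC1 (8.2%, against up to 9.37%). Here the fibroblast markers summed to 1783 and 2158 CPM in controls and to 3033 to 3560 in STAG1 KO libraries. They did not move alike, with log2 fold changes of 3.27 for COL1A1 (standard error 0.481) and 0.40 for COL1A2 (0.124). Those of PDGFRB and DCN were 0.43 (0.235) and −0.83 (0.918). The epithelial markers summed to 148 and 184 CPM in controls and 252 to 455 in STAG1 KO libraries, and the endothelial ones to 0.814 and 0.968 against 1.36 to 3.13. What these shifts contribute was not tested.

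Loss of either PRC2 subunit came with transcripts of ABCB1, a gene with at most 1 count in any other A673 clone or parental library. ABCB1 (chr7:87503017-87713323, − strand) had 0, 0 and 1 counts in the control libraries of experiment 2, 9, 23 and 14 in the EZH2 KO libraries and 16, 21 and 14 in the SUZ12 KO libraries. The groups did not overlap, but the levels stayed low, at 0.792 ± 0.432 CPM in EZH2 KO and 0.823 ± 0.1 CPM in SUZ12 KO libraries (SD, n = 3 each). From the summed counts the ratio to controls was 40.9 in EZH2 KO (95% exact counting interval 6.99 to 1650) and 44.1 in SUZ12 KO (7.56 to 1770), intervals that cover counting error only. ABCB1 passed the filter on low counts only through these KO libraries, so that it had to differ to be tested at all. By edgeR it was called higher in both comparisons (adjusted p = 0.00366 and 0.00243, log2 fold changes of 5.0 and 5.06 that depend on the prior count). Under that filter these calls lend no support to the rise. The same holds for the adjusted p without any single library, 0.00612 to 0.027 in EZH2 KO and 0.006 to 0.0187 in SUZ12 KO. When only EZH2 KO and control libraries entered the fit, ABCB1 did not pass the filter on low counts.

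ABCC3 was the other low member called higher, and it too passed the filter only through the PRC2 KO libraries. Its 3, 4 and 12 counts in the controls compared with 33, 40 and 17 in EZH2 KO and 44, 30 and 15 in SUZ12 KO libraries, which lie above all controls. By edgeR its log2 fold change was 2.12 in EZH2 KO (adjusted p = 0.0416, standard error 0.632) and 2.02 in SUZ12 KO (adjusted p = 0.0413, standard error 0.631). Since the filter let ABCC3 in through these KO libraries, its p-values lend no support to the rise. Both calls rested on single libraries, while the log2 fold change stayed at 1.75 to 2.88 in EZH2 KO and 1.61 to 2.78 in SUZ12 KO whichever library was left out. The adjusted p was 0.162 and 0.155 without the WT clone library 1 or 2 and 0.0922 and 0.139 without EZH2 KO library 1 or 2. In SUZ12 KO it was 0.155 and 0.146 without the WT clone library 1 or 2, and 0.154 and 0.088 without SUZ12 KO library 1 or 2.

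ABCC1 was at 44, 44.7 and 53.1 CPM in EZH2 KO and at 78.2, 66.9 and 57.2 in SUZ12 KO libraries, against 35.4 to 45.5 in the shared controls. All SUZ12 KO libraries were above all controls, with a log2 fold change of 0.82 (standard error 0.17) and of 0.69 to 0.93 when each library was left out. In EZH2 KO, where its values overlapped those of the controls, it was 0.30 (standard error 0.17). No p-value is given for ABCC1 here, since these controls are also among the values that chose it. The difference between the KO of EZH2 and of SUZ12 was not tested. ABCC4 (−0.04 and 0.18), ABCC5 (0.18 and 0.25), ABCC10 (−0.06 and −0.05) and ABCC2 (−0.16 and −0.36) had log2 fold changes with adjusted p-values of 0.185 to 0.923 in EZH2 KO and SUZ12 KO. ABCC4 spread widely among EZH2 KO libraries, at 145.9, 93.4 and 148.9 CPM.

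Among the 7 members tested, 2 were called in EZH2 KO beside 15.7% of 15130 genes, and 3 in SUZ12 KO beside 20.6%, where the third was ABCC1. These counts and medians give no support, since ABCB1 and ABCC3 entered through the KO libraries and ABCC1 shares the controls that chose it. The median log2 fold change of the tested members was 0.18 in EZH2 KO and 0.25 in SUZ12 KO, against 0.04 and 0.01 for all genes. The 2 comparisons and that of STAG2 KO in experiment 2 share their control libraries. In the same cells the 7 Ewing sarcoma markers summed to 1447 to 1640 CPM in the 6 PRC2 KO libraries and 984 to 1022 CPM in controls, 4 epithelial markers to 421 to 1224 against 349 to 402, and 3 endothelial markers to 2.1 to 6.3 against 0.763 to 1.17. The fibroblast markers summed to 789 to 1128 CPM in EZH2 KO and 577 to 778 in SUZ12 KO against 788 to 1746 in controls. By edgeR COL1A2 was lower in EZH2 KO (log2 fold change −1.58, adjusted p = 0.0344) and SUZ12 KO (−1.65, adjusted p = 0.023). COL1A1 (1.24 and 0.40), PDGFRB (−0.36 and −0.55) and DCN (0.23 and −0.27) were called in neither. The 4 immune markers summed to 0.525 to 1.21 CPM against 0.308 to 0.43. What these shifts contribute to the members was not tested.

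**Figure D3:**
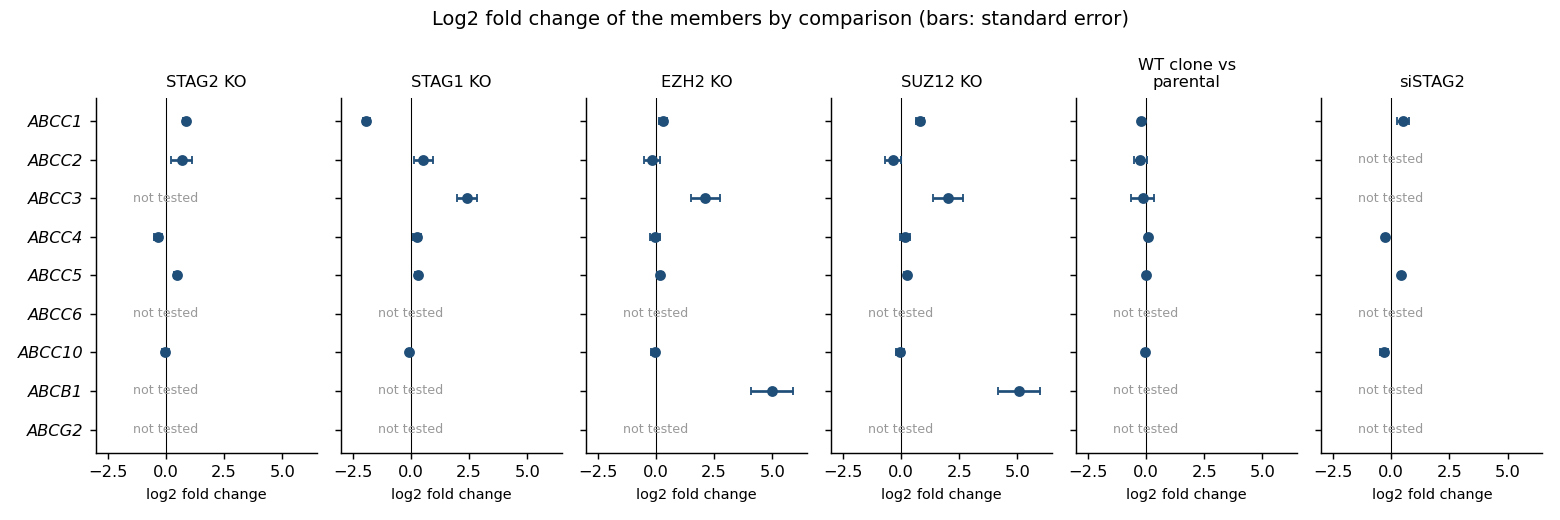
Log2 fold change of each member (horizontal axis) in 6 comparisons, with bars for the standard error. Members too low for a fit are marked as not tested. ABCB1 at 5.0 and 5.06 and ABCC3 at 2.12 and 2.02 stand out in EZH2 KO and SUZ12 KO, and ABCC1 lies at 0.86 in STAG2 KO and −1.92 in STAG1 KO.

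The acute knockdown tested the members in data that did not choose them. STAG2 itself was at 992 to 1090 normalized reads in siC and 144 to 179.9 in siSTAG2 libraries. ABCC5 was at 182, 203.7 and 164.6 normalized reads in siC libraries 1, 2 and 3 and at 230.8, 255 and 249.2 in siSTAG2 libraries 1, 2 and 3, without overlap. It rose with a log2 fold change of 0.42 on the log2(value + 1) scale (standard error 0.102, adjusted p = 0.00411 by limma), and its adjusted p was 0.00117 to 0.0324 when any single library was left out. ABCC4 was at 332.6, 339.5 and 376.1 in siC and at 277.4, 286.5 and 310.1 in siSTAG2 libraries, again without overlap. It fell by 0.26 on that scale (standard error 0.0862, adjusted p = 0.0319), a call lost without siC library 3 (adjusted p = 0.152), siSTAG2 library 1 (0.104) or siSTAG2 library 2 (0.0984). Its log2 fold change stayed at −0.31 to −0.21 over these fits.

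ABCC1 was at 21.9, 18.7 and 30.2 normalized reads in siC and at 33.3, 27.8 and 39.6 in siSTAG2 libraries, from 71 and 101 reads in all. The groups overlapped, and the log2 fold change of 0.50 (adjusted p = 0.167, standard error 0.251) did not pass the threshold, which at this depth does not show that ABCC1 was unchanged. ABCC10 was at 72.4 to 73.8 in siC and 51.0 to 67.7 in siSTAG2 libraries, without overlap, but its log2 fold change of −0.31 did not pass (adjusted p = 0.2, standard error 0.164). Of the 4 members tested, ABCC5 was called as higher and ABCC4 as lower, beside 20.5% of 12060 genes, with a median of 0.08 against 0.01 for all genes. ABCC2 (2 and 3 reads) and ABCC3 (5 and 7 reads) were too low for the test, ABCC6 had 1 read in all, and ABCB1 and ABCG2 had 0 in all 6 libraries. All 4 fibroblast markers fell with siSTAG2 (limma), COL1A1 by 1.88, COL1A2 by 1.34, PDGFRB by 1.06 and DCN by 2.62 on the log2 scale (adjusted p = 2.36e-14, 7.39e-14, 3.6e-09 and 2.51e-06). Of the 7 Ewing sarcoma markers 3 fell (CD99, PRKCB and STEAP1) and 1 rose (NR0B1). Their part in the result was not tested.

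**Figure D4:**
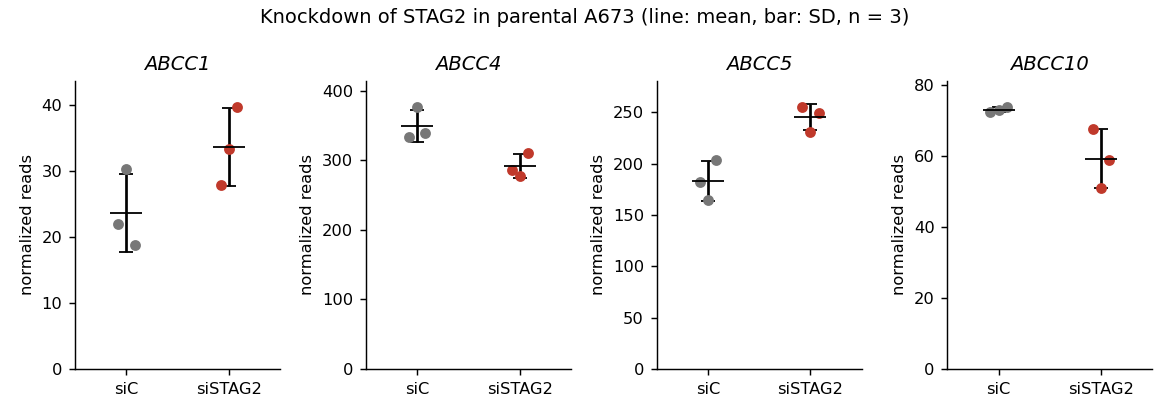
Normalized reads of the 4 tested members in the knockdown of STAG2 in parental A673 cells, with points for libraries, lines for means and bars for the SD (n = 3). ABCC5 is higher and ABCC4 lower in all siSTAG2 libraries than in all siC libraries, while the values of ABCC1 overlap and those of ABCC10 do not.

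In the isogenic pairs, ABCC1 and ABCC4 went opposite ways in the 2 lines. ABCC1 measured 29.7 CPM in SK-N-MC iCas9 cells and 92.8 after STAG2 KO, 3.13 times as high (95% exact counting interval 2.91 to 3.37). In A4573 it was at 86.8 CPM in the cells without STAG2 and 102.3 with the STAG2 KI, a ratio without to with STAG2 of 0.848 (0.805 to 0.893). ABCC4 was at 11.35 CPM in SK-N-MC iCas9 cells and 34.0 in the KO (ratio 3.0, 2.66 to 3.38), at 53.1 CPM in the A4573 KI and 39.6 in the cells without STAG2 (0.746, 0.692 to 0.804). ABCC5 was higher without STAG2 in both pairs, by ratios of 1.14 (1.1 to 1.2) in SK-N-MC and 1.53 (1.44 to 1.63) in A4573. ABCC10 was lower without STAG2 in both, by 0.918 (0.865 to 0.973) and 0.635 (0.594 to 0.679). These intervals cover counting error, not the difference between cultures or clones, and there is no test.

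ABCB1 had 0 counts in SK-N-MC and 11 in its STAG2 KO, at least 3.96-fold higher against a floor of 3 counts, and 0 in both A4573 libraries. ABCC2 had 86 and 29 counts in SK-N-MC and its KO (ratio 0.364, 0.23 to 0.56) and 23 and 20 in A4573 with and without STAG2. ABCC3 had 16 and 5 counts in SK-N-MC and its KO, and 0 in A4573. ABCG2 had 7 to 22 counts in the 4 libraries. ABCC6 had 230 counts in the A4573 KI and 108 in the cells without STAG2, but its pseudogene ABCC6P1 had 115 and 89 in the same libraries, and since reads with up to 5 hits were kept, the counts of ABCC6 are uncertain. Past a 2-fold difference were ABCC1, ABCC2, ABCC3, ABCC4 and ABCB1 of 9 members in the SK-N-MC pair, beside 21.6% of 16413 genes, and ABCC6 of 7 in the A4573 pair, beside 21.8% of 16124. STAG2 transcripts were at 292.8 CPM in SK-N-MC and 184 in the KO, and at 34.1 and 86.9 in A4573 without and with the KI. The SK-N-MC KO also differed in PTPRC, a marker of immune cells, at 58.2 CPM against 3.0, and in the fibroblast markers, at 199.5 against 726 CPM, whose part was not tested.

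**Figure D5:**
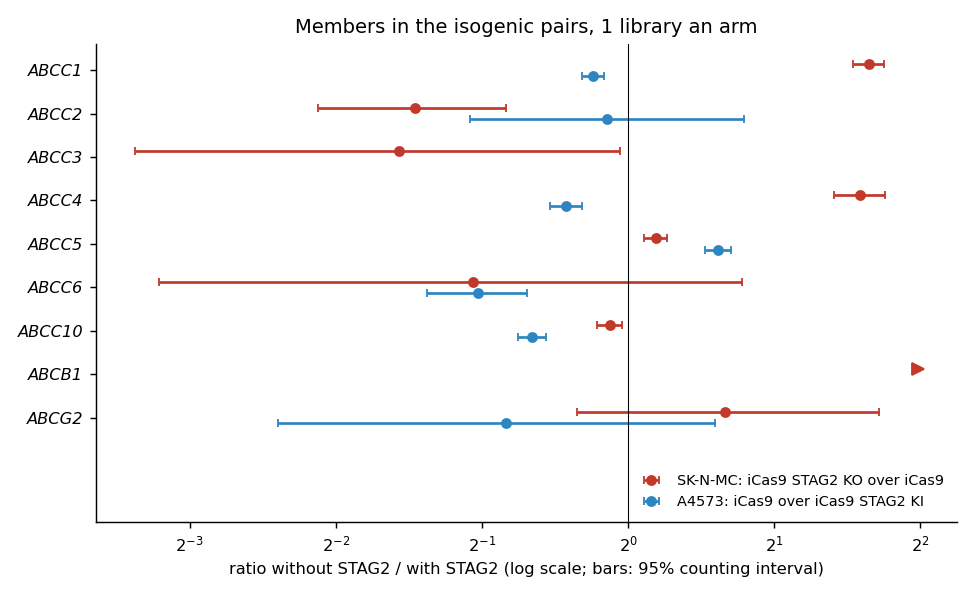
Ratio of the level without STAG2 to the level with STAG2 (log axis) for each member in the isogenic pairs, 1 library an arm, with 95% exact counting intervals. The triangle for ABCB1 is a lower bound against a floor of 3 counts. ABCC1 and ABCC4 lie to the right of 1 in SK-N-MC and to the left of 1 in A4573.

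The unedited WT clone and the parental line differed little in the members. None of the 6 tested was called by edgeR, beside 2.75% of 14521 genes, 1 (ABCC1) had an unadjusted p under 0.05, and DESeq2 called none. ABCC1 had a log2 fold change of −0.23 in the WT clone (standard error 0.0878, adjusted p = 0.23), which was −0.35 with an adjusted p of 0.0404 without the parental library of experiment 1. These control libraries are among the values that chose ABCC1, so that its p-values here are a description only. The other log2 fold changes ran from −0.24 for ABCC2 (standard error 0.283) to 0.07 for ABCC4 (0.0864). ABCC6 and ABCG2 entered no fit in any comparison. ABCC6 had 12 counts over the EZH2 KO and 22 over the SUZ12 KO libraries against 2 in the controls (ratios 5.34, 1.19 to 49.1, and 9.50, 2.34 to 83.4), but its pseudogenes also had up to 6 counts in a library. ABCG2 had 12 and 16 counts against 4 (ratios 2.67, 0.809 to 11.4, and 3.45, 1.11 to 14.2). ABCC10 shares exonic bases with DLK2 on the opposite strand, and without strand information reads in those bases cannot be assigned to either gene. DLK2 had 1 to 43 counts in the A673 libraries, 283 in SK-N-MC and 460 in its STAG2 KO.

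The same data hold the genes that work beside the efflux pumps. Of 39 other ABC genes, 29 were tested in the PRC2 comparisons, where 4 rose and 1 fell in EZH2 KO and 5 rose in SUZ12 KO, beside the 15.7% and 20.6% called of all genes. The leading gene was ABCA1, the exporter of cholesterol to apolipoproteins, which was at 0.443 ± 0.298 CPM in controls, 6.36 ± 2.46 in EZH2 KO and 8.6 ± 3.99 in SUZ12 KO libraries (SD, n = 3 each), with log2 fold changes of 3.86 (adjusted p = 0.019) and 4.30 (adjusted p = 0.00884). ABCF2 fell by 0.80 in EZH2 KO on the log2 scale (adjusted p = 0.0364), and the smallest called rise in SUZ12 KO was that of ABCB6, a porphyrin transporter, at 0.66 (adjusted p = 0.0126). The median log2 fold change of these 29 genes was 0.48 in EZH2 KO and 0.40 in SUZ12 KO. Of 11 tested drug uptake and MATE transporters, 3 rose in EZH2 KO, and 4 rose and 1 fell in SUZ12 KO. The organic anion carrier SLCO4C1 had the highest log2 fold change in EZH2 KO (4.64, adjusted p = 0.00736), and the carnitine carrier SLC22A5 the smallest called there (1.59, adjusted p = 0.0194). In SUZ12 KO the MATE exporter SLC47A1 had the highest (5.27, adjusted p = 0.0102), and SLCO5A1 fell (−0.47, adjusted p = 0.0344). SLCO4C1 and SLC47A1 had means of 0.191 and 0.0359 CPM in controls and, like ABCB1, passed the filter only through the PRC2 KO libraries. So did ABCA1, at 0.108 to 0.677 CPM in controls. The p-values of ABCA1, SLCO4C1 and SLC47A1 therefore lend no support to their rise, and nothing is read from the counts that include them.

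Of 11 tested regulators of efflux genes, 2 rose in each PRC2 comparison, the lipid-sensing receptor PPARA (2.98 and 3.35, adjusted p = 0.0475 and 0.0247) and the oncogene MYCN (2.40 and 3.04, adjusted p = 0.0086 and 0.00189). MYCN was at 2.41 ± 0.473 CPM in controls, 12.6 ± 2.86 in EZH2 KO and 19.6 ± 5.45 in SUZ12 KO libraries. Of 18 tested genes for glutathione supply and conjugation, which provide the cosubstrate of ABCC1, 1 rose in EZH2 KO (GSTO1, 0.51, adjusted p = 0.0188), beside 15.7% of all genes. In SUZ12 KO 2 rose and 1 fell, beside 20.6% of all genes, with the glutathione transferase GSTM3 highest (1.40, adjusted p = 0.0162) and the cystine importer SLC7A11 lowest (−0.76, adjusted p = 0.0404).

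After the knockdown of STAG2, where 20.5% of all genes were called, 5 of 17 tested glutathione genes rose and 3 fell, from SLC7A11 (0.57, adjusted p = 2.07e-06) to GSTZ1 (−0.52, adjusted p = 0.00948). Of 19 other ABC genes 4 rose and 1 fell, from the antigen peptide transporter TAP2 (0.33, adjusted p = 0.0223) to ABCA7 (−1.04, adjusted p = 0.00087). Of 11 regulators 2 fell, PPARA the most (−1.70, adjusted p = 0.0013) and KEAP1, the brake on NRF2, the least (−0.20, adjusted p = 0.0355). Of 7 uptake carriers 2 rose and 2 fell, from the folate carrier SLC19A1 (0.24, adjusted p = 0.0243) to SLCO3A1 (−0.54, adjusted p = 0.028). Between the WT clone and the parental line, where 2.75% of all genes were called, 3 of 29 other ABC genes were higher and 2 lower in the WT clone, from ABCA8 (2.03, adjusted p = 0.0119) to TAP1 (−1.05, adjusted p = 0.0203), and 1 of 18 glutathione genes was lower (MGST2, −1.43, adjusted p = 0.0124).

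In STAG2 KO and STAG1 KO cells the same lists are given as counts, beside 12.2% and 5.27% of all genes called. Of 28 other ABC genes, 1 was called higher and 3 lower in STAG2 KO and 1 higher and 1 lower in STAG1 KO. Of 18 glutathione genes, 2 were higher and 2 lower in STAG2 KO and 2 were higher in STAG1 KO. The median log2 fold change of the other ABC genes was −0.21 in STAG2 KO and 0.13 in STAG1 KO. AHR, the xenobiotic receptor, was the called regulator in STAG2 KO (log2 fold change 0.91), and MYC that in STAG1 KO (−0.54), each of 11 tested. In the isogenic pairs, where 21.6% and 21.8% of all genes were past 2-fold, 6 of 30 other ABC genes were higher and 3 lower without STAG2 in SK-N-MC, and 1 was higher and 10 lower in A4573.

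Genes near ABCC1 and ABCB1 were compared to see whether they moved with them. Of 16 genes of the count tables that start within 500 kb of ABCC1, 4 were tested in each A673 clone comparison. None was called in STAG2 KO, STAG1 KO, EZH2 KO or SUZ12 KO, beside 12.2%, 5.27%, 15.7% and 20.6% of all genes. Their log2 fold changes there were −0.73 to 0.09. The nearest, FOPNL, had log2 fold changes of 0.05 in STAG2 KO and 0.08 in STAG1 KO. After siSTAG2, 1 of 2 tested neighbours was lower by limma (NDE1, log2 fold change −0.32, adjusted p = 0.0289), beside 20.5% of all genes called. Around ABCB1, 1 of 8 tested genes was called higher in EZH2 KO, beside 15.7% of all genes, and 2 in SUZ12 KO, beside 20.6%. RUNDC3B, which overlaps ABCB1 on the other strand without sharing exonic bases, had 1, 0 and 0 counts in the controls, 5, 24 and 7 in EZH2 KO and 18, 33 and 6 in SUZ12 KO libraries (adjusted p = 0.0169 and 0.00665), and it passed the filter only through these KO libraries. ABCB4, the phospholipid flippase next to ABCB1, had 4 to 7 counts in controls, 11, 65 and 10 in EZH2 KO and 21, 91 and 19 in SUZ12 KO libraries. By edgeR its log2 fold changes were 2.33 (adjusted p = 0.095) and 2.75 (adjusted p = 0.044). ABCB4 too passed the filter only through these KO libraries, so that nothing is read from the calls of RUNDC3B and ABCB4. EZH2 KO library 2 and SUZ12 KO library 2 had the most counts of ABCB1, RUNDC3B and ABCB4 in their groups. In SK-N-MC, RUNDC3B had 5 counts and 59 in the STAG2 KO, and ABCB4 3 and 15.

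Across the 22 A673 libraries, after the mean of each experiment's controls was subtracted, the genes whose log2 CPM was most like that of ABCC1 included IGF1R, the receptor for insulin-like growth factor 1 (Pearson r = 0.952), and ABHD17C, a depalmitoylase (0.948), out of 11039 genes whose mean was 5 CPM or more. UBE2J1, a ubiquitin-conjugating enzyme of the endoplasmic reticulum, was most unlike it (−0.952). These are descriptions over libraries that share groups and controls. IGF1R was at 38.05 ± 9.08 CPM in STAG1 KO against 98.58 ± 10.7 in its controls, and at 102.8 ± 9.39 CPM in STAG2 KO of experiment 1 against 66.53 ± 2.99. UBE2J1 was at 215.7 ± 19.1 CPM in STAG1 KO against 101.8 ± 7.72 in its controls. Of the members, ABCC5 (0.109), ABCC10 (−0.0487) and ABCC4 (−0.48) followed ABCC1 far less closely.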

How the data were processed

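RNA-seq was available for 22 A673 clone and parental libraries, 6 knockdown libraries and 4 isogenic libraries. Per the methods of the study and the submitters' processing notes, cDNA was made from oligo-dT with template switching and did not keep strand. Single-end reads of 86 nt were aligned to hg38 by TopHat 2.0.0, with SAMtools 0.1.16 and Bowtie 0.12.7, keeping reads with up to 5 hits. The program that counted the reads and its annotation are not given in the sources used here. The counts deposited by the authors for the clones and isogenic pairs are whole reads per gene symbol, without normalization. The deposited knockdown values are a signal: the authors divided the counts of each library by 1 factor. Dividing them by their smallest step gave whole reads for 100% of values (tolerance 0.01 reads), and 56104 of 60199 gene IDs had a symbol. All columns of values per sample were used, and 0 were left out.

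Count tests used edgeR 4.0.16 under R 4.3.3 (filterByExpr with a minimum count of 10, TMM, quasi-likelihood test) and Benjamini-Hochberg adjustment over all genes tested, called at 0.05. The STAG2 KO fit used experiments 1 and 2 and a term for experiment, the PRC2 fits all 12 libraries of experiment 2, the STAG1 KO fit experiment 3, and the WT clone was compared with the parental line over 8 libraries, also with that term. The knockdown was tested with limma 3.58.1 on log2(value + 1) for genes with a mean of at least 10. Isogenic libraries were set against each other on log2 CPM (prior count 2) where a gene reached 10 counts over both. DESeq2 1.42.0 was an alternative. Ratios of counts have 95% exact (Clopper-Pearson) intervals. Coordinates are those of GENCODE 44. The members, lists and tests were chosen with earlier results of these data known. All members are named, and of each other list the called genes with the largest and smallest log2 fold change per tested comparison. Further alternatives were other scaling, filters, pseudocounts and controls, a replicate block, and leaving out each library. The fits were checked on simulated data. Of the genes near ABCC1 in pattern, not all are reported here.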

Additional observations from a re-analysis of the deposited data

Results flagged for a closer look

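ABCC1 differed in direction between the isogenic pairs. The log2 difference, without minus with STAG2, was 1.64 in SK-N-MC and −0.24 in A4573. Both counting intervals of the ratios exclude 1, but they cover counting error only. ABCC4 did the same, with 1.58 in SK-N-MC and −0.42 in A4573. Among all genes of a pair, ABCC1 and ABCC4 lay at percentiles 95.3 and 95 in SK-N-MC. In A4573 they lay at percentiles 37.3 and 29.3, within the bulk of all genes. With 1 library an arm the difference between the lines was not tested. No member had a library set apart from its group by Dixon's criterion among the STAG2 KO libraries (n = 5), the controls of experiments 1 and 2 (n = 6) or all controls (n = 8), for the 4 members with a mean of at least 5 CPM.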

How the results depend on the processing

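In STAG2 KO, 2 of the fitted members were called in the reported fit, and 1 without the experiment term (ABCC5), 1 in experiment 2 alone (ABCC1), 1 against the WT clone alone (ABCC1), and 1 to 2 when each library was left out. In EZH2 KO, 2 were called and 1 (ABCC3) when only the compared groups were fitted, where ABCB1 did not pass the filter on low counts. Leaving out each library gave 1 to 2 called members in EZH2 KO, 0 to 2 in STAG1 KO, 0 to 1 in the WT clone against the parental line and 1 to 2 in the knockdown. Where an arm was left with 1 library, that library is assumed to vary like the other groups. DESeq2, its size factors, no filter on low counts and, for STAG2 KO and the WT clone, summing the WT clone libraries a and b (chosen after seeing the data) changed no count of called members. The SK-N-MC and A4573 counts of 5 and 1 members past 2-fold were the same with a prior count of 0.5 and with library size only.

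Directions that turned belonged to log2 fold changes near 0. Leaving out each library, ABCC4 ran from −0.15 to 0.15 in EZH2 KO, ABCC10 from −0.18 to 0.051 in SUZ12 KO and ABCC10 from −0.11 to 0.096 in STAG2 KO. In the WT clone against the parental line, ABCC3 ran from −0.49 to 0.54, ABCC4 from −0.0097 to 0.16, ABCC5 from −0.10 to 0.024 and ABCC10 from −0.076 to 0.019. The cause was not tested.

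The replicate numbers of the knockdown did not pair the libraries (correlations of deviations 0.0257, 0.0372 and 0.00402), and with the replicate number as a block 2 members were called, as without it, and 2881 genes in place of 2476. edgeR on the recovered reads called 2503 genes and the same count of members. At these depths ABCB1, ABCG2 and ABCC6 lie at or near the floor of 3 counts in most libraries, so that differences in them smaller than several-fold were not detectable.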

Other observations

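The level of ABCC1 relative to the other members differed between the data sets of parental A673. In mock-transfected parental cells of the knockdown, the level from recovered reads was 3.17 ± 0.839 CPM for ABCC1, 46.9 ± 3.54 for ABCC4, 24.6 ± 2.18 for ABCC5 and 9.80 ± 0.13 for ABCC10 (SD, n = 3). In the 3 parental libraries of experiments 1 to 3, normalized CPM was 67.2 ± 18.9 for ABCC1, 117 ± 22.9 for ABCC4, 41.7 ± 3.85 for ABCC5 and 32.7 ± 1.66 for ABCC10 (SD, n = 3). Per kb of exon, ABCC1 came after ABCC4 and before ABCC10 in the clone experiments, and after ABCC10 in the knockdown, at 0.363 CPM per kb against 1.21 for ABCC10. The tables were counted and scaled separately, and no test was made across them. Levels per kb assume that reads cover the exons of a gene alike in both data sets, which was not tested.

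ABCC1 also differed between experiments in cells of the same label. The WT clone was at 74.2 and 76.3 CPM in experiment 1, 35.4 and 36.0 in experiment 2 and 62.9 in experiment 3, and the parental line at 75.7, 45.5 and 80.3. ABCC10 stayed between 29.5 and 35.3 CPM in the same 8 libraries.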
